A study of Mus musculus with 12 samples.

Results

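The SLAM family (signalling lymphocytic activation molecules) is described here through 9 genes: the receptors Slamf1 (CD150), Cd48, Ly9 (CD229), Cd84, Slamf6, Slamf7, Slamf8 and Slamf9, and the adaptor Sh2d1a (SAP). The members were chosen by gene symbol, with the probe set of the highest mean kept for each gene. All 9 of 9 were measured, each by 1 probe set, among 19494 named genes on the arrays. Slamf1 and Cd48 are also the surface markers with which the cells were sorted, so their difference between the sorted populations was set by the sort and is given as a description.

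Arrays came from 6 mice: 3 Nfat5 fl/fl Vav-Cre mice (KO; mice 2, 11 and 70) and 3 Nfat5 +/+ Vav-Cre mice (WT; mice 3, 12 and 64). Both genotypes carry Vav-Cre, in which a promoter active throughout the blood system drives the recombinase, so deletion is not limited to stem cells. From the bone marrow of each untreated mouse, hematopoietic stem cells (HSC; CD48- CD150+ cells of the Lin- Sca1+ Kit+ fraction, LSK) and multipotent progenitors (MPP; CD48+ CD150- LSK cells) gave 1 array each. This made 4 groups of 3 arrays: HSC KO, HSC WT, MPP KO and MPP WT. NFAT5 is a transcription factor of the Rel family known for the response to osmotic stress.

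SLAM receptors are immunoglobulin-type surface proteins of blood cells, and most of them bind the same receptor on a neighbouring cell. CD48 is an exception: it is held in the membrane by a lipid anchor, has no cytoplasmic tail, and is the ligand of CD244. The tails of the other main receptors carry tyrosine motifs that bind the small adaptors SAP and EAT-2 or, in their absence, inhibitory phosphatases. In mouse marrow CD150 is known as a marker of stem cells, and CD48 and CD244 as markers that appear on progenitors.

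Promoters of 4 members are shown, taken from RefSeq (GRCm38.p6) as the 250 bases before the gene's start, 5′ to 3′ on the gene's strand. Cd48 and Slamf1 are shown because these nearby genes differed in opposite directions between the populations, which the sort had set. Slamf7 and Slamf9 are shown because theirs were the member windows that matched an NFAT core. Capitals mark the matches to 4 short motifs searched on both strands, and none of the matches shown overlap. The core of the ETS factors, which include PU.1 of blood cells, was searched as GGAAG. The core of the RUNX factors, needed for definitive blood formation, was searched as TGTGGT. For the GATA factors of stem cells and the erythroid lineage the letters were AGATAA. For NFAT proteins, NFAT5 included, the core letters were TGGAAA.
Cd48, chr1:171681742-171681991, + strand: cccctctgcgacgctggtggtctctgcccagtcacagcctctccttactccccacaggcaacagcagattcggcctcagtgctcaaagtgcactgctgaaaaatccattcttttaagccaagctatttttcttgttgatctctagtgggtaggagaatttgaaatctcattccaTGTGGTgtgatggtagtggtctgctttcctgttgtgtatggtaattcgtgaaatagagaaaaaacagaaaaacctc
Slamf1, chr1:171766882-171767131, + strand: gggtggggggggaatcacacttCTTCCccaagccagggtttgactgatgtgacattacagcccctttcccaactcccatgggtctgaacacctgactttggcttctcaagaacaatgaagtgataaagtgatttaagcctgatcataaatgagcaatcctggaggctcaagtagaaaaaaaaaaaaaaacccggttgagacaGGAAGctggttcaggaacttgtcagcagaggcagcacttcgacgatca
Slamf7, chr1:171649000-171649249, - strand: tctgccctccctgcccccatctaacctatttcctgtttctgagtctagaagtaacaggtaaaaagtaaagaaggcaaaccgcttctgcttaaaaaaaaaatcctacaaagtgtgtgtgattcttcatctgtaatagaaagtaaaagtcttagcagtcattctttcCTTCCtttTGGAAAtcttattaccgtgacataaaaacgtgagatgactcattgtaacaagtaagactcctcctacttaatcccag
Slamf9, chr1:172475110-172475359, + strand: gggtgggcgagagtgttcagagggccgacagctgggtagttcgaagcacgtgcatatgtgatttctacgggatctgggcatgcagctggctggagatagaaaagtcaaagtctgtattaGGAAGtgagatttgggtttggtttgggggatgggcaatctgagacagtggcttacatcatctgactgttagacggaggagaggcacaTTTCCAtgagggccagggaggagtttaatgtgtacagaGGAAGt

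A window was at hand for 7 of the 9 members. The Cd48 window held 1 RUNX core that begins 76 bases before the start. The Slamf1 window held 2 ETS cores, the nearer of them 48 bases before the start. Slamf7 had 1 ETS core, and 1 NFAT core that begins 77 bases before the start. Slamf9 had 2 ETS cores, and 1 NFAT core that begins 44 bases before the start. Cd84 had 1 RUNX core, Slamf8 had 1 ETS core and Slamf6 had none of the 4 motifs. No member window held the GATA core. Such short words are frequent: among 32851 windows of the same length, 64.1% held the ETS core, 14.0% the RUNX core, 9.99% the GATA core and 18.6% the NFAT core, so a match describes the sequence and is not a binding site.

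All values below are log2 intensities that the authors normalized with RMA, and on this scale a difference of 1 is a 2-fold difference in signal. The array medians lay between 5.81 and 5.91. Probe sets bind with different strength, so levels are compared between groups for the same gene and not between genes. Of the 9 members, 6 passed the filter that leaves out the lowest 25% of genes (mean below 4.96), and Slamf6, Slamf7 and Slamf8 did not.

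By the mean of each list, the sorted populations carried the transcripts of their own markers. The lists were chosen with earlier results of these data known, so this is a description. Over both genotypes 13 of 13 HSC markers had the higher mean in HSC and 8 of 8 MPP markers the lower. Of all genes tested, 57.2% were higher in HSC. Notch1 of the MPP list hardly differed, at -0.04. The mean over 13 HSC markers lay between 7.60 and 8.20 on HSC arrays, against 6.48 to 6.80 on MPP arrays, and the mean over 8 MPP markers between 5.76 and 6.37 on HSC arrays, against 8.88 to 9.16 on MPP arrays. Nfat5 itself averaged 7.69 ± 0.31 in HSC KO and 8.60 ± 0.36 in HSC WT, and 7.16 ± 0.25 in MPP KO and 8.03 ± 0.24 in MPP WT (SD, n = 3 each). The KO signal was thus 53.1% of WT in HSC and 54.8% in MPP. No KO array reached a WT array of its population (two-sided exact permutation p = 0.1 in each, the smallest that 3 against 3 mice allow). Where the probe set lies relative to the deleted exons was not determined.

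Slamf1, whose product CD150 defines the HSC gate, was high in both HSC groups and low in both MPP groups. In HSC KO it read 8.21, 8.71 and 7.14 in mice 2, 11 and 70, and in HSC WT 8.44, 7.80 and 7.88 in mice 3, 12 and 64. MPP KO gave 5.35, 5.74 and 5.55, and MPP WT gave 5.81, 6.02 and 5.58 in the same order of mice. Every HSC array lay above every MPP array, while the genotypes overlapped within each population. The lowest HSC value belonged to KO mouse 70. Within mice, HSC exceeded MPP by 1.59 in that mouse and by 1.78 to 2.98 in the other 5. The mean difference in KO was 2.47, and 2.91 without KO mouse 70, against 2.24 in WT.

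Cd48, which encodes the ligand of CD244 and defines the MPP gate, showed the opposite pattern. It read 5.40, 5.40 and 5.75 in HSC of KO mice 2, 11 and 70, and 5.86, 5.34 and 6.02 in HSC of WT mice 3, 12 and 64. The MPP values were 8.47, 8.57 and 9.06 in KO and 8.0, 8.63 and 9.04 in WT. HSC arrays reached at most 6.02 and MPP arrays were at least 8.0, and the genotypes overlapped in both. Mean differences of HSC against MPP were -3.18 in KO and -2.82 in WT, the least negative being -2.14 in WT mouse 3.

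**Figure D1:**
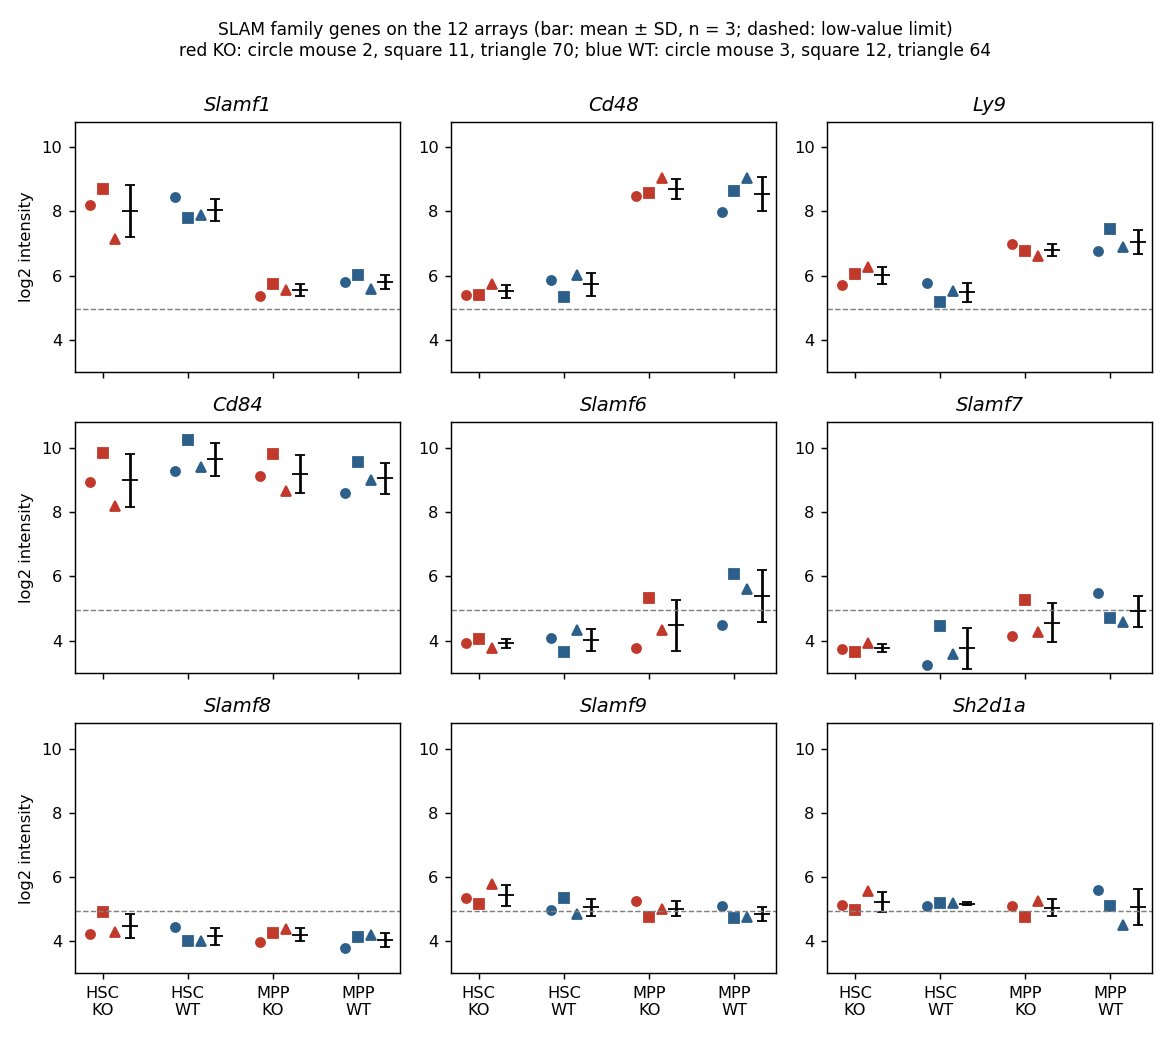
SLAM family genes on the 12 arrays. Each panel plots log2 intensity of a member for HSC KO, HSC WT, MPP KO and MPP WT, with a point per mouse, a bar for mean ± SD (n = 3) and a dashed line at the low-value limit of 4.96; Slamf1 is high in HSC, Cd48 and Ly9 are high in MPP, and Cd84 spreads widely in every group.

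Ly9 encodes a self-binding SLAM receptor best known from T and B cells, and it was not used in the sort. Its level in HSC KO was 5.72, 6.05 and 6.26 in mice 2, 11 and 70, and in HSC WT 5.76, 5.17 and 5.53 in mice 3, 12 and 64. In MPP KO it was 6.99, 6.78 and 6.62, and in MPP WT 6.78, 7.47 and 6.90. All 6 HSC arrays lay below all 6 MPP arrays, with HSC at most 6.26 and MPP at least 6.62. Among all genes tested, 2.36% were lower in HSC with no overlap. Ly9 fell in HSC relative to MPP over both genotypes (log2 difference -1.17, 95% interval -1.53 to -0.81; limma adjusted p = 0.0021), and it was lower in HSC in 6 of 6 mice (two-sided exact sign-flip permutation p = 0.03125, the smallest that 6 mice allow, not adjusted). In this comparison 4.85% of the 14620 genes tested passed, 2.92% as lower in HSC, and Ly9 was the 1 passing gene among the 4 tested members that were not sort genes.

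Within each genotype the Ly9 difference was less secure. In WT it was -1.56 (SE 0.23; limma adjusted p = 0.0071), where 1.32% of genes passed as lower in HSC. With the mouse as a block the WT difference kept its size but its adjusted p was 0.066 by limma. Without WT mouse 12 it was -1.19 (limma adjusted p = 0.064), and without WT mouse 64 it was -1.66 (limma adjusted p = 0.069). In KO the difference was -0.78 (SE 0.23; limma adjusted p = 0.157) and did not pass. The genotypes' differences themselves differed by 0.78 (SE 0.33), with an unadjusted limma p of 0.0365 and an adjusted p of 0.9996, so a smaller step in KO was not established.

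**Figure D2:**
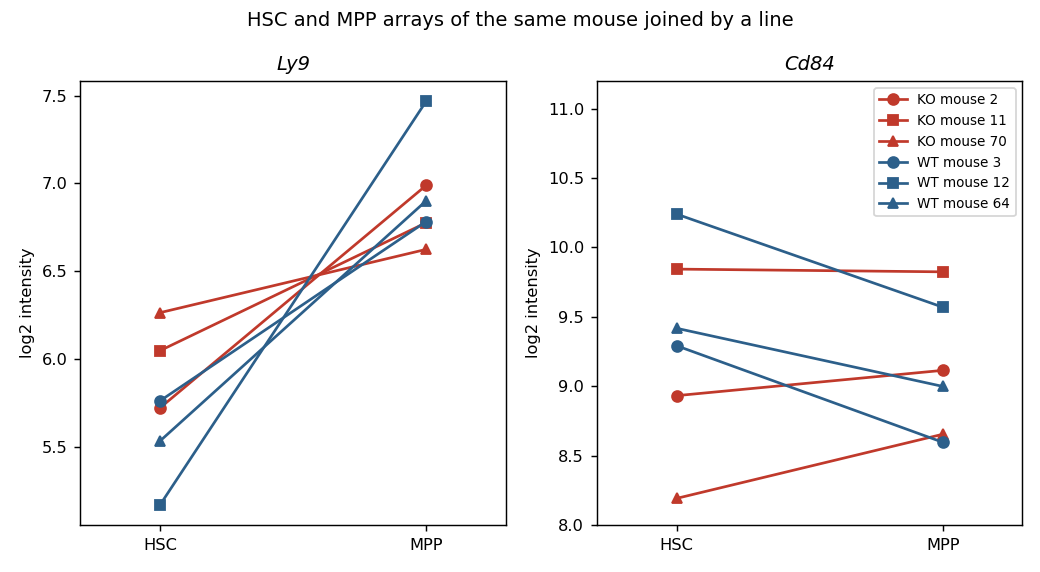
Ly9 and Cd84 in HSC and MPP of the same mouse. Lines join the log2 intensity of the HSC array (left) to that of the MPP array (right) for each of the 3 KO and 3 WT mice; every Ly9 line runs upward to MPP, and the Cd84 lines run downward in the 3 WT mice and are flat or upward in the 3 KO mice.

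Cd84 encodes a self-binding receptor also found on platelets, mast cells and early blood progenitors. It read 8.93, 9.84 and 8.19 in HSC of KO mice 2, 11 and 70, and 9.29, 10.24 and 9.42 in HSC of WT mice 3, 12 and 64. The MPP values were 9.11, 9.82 and 8.65 in KO and 8.60, 9.57 and 9.0 in WT. All 4 groups overlapped, with group means between 8.99 and 9.65 and SDs within groups between 0.49 and 0.83. The order of the mice was the same in both populations, with 11 above 2 above 70 among KO mice and 12 above 64 above 3 among WT mice. HSC minus MPP was -0.18, 0.02 and -0.46 in the KO mice, against 0.70, 0.67 and 0.42 in the WT mice. These within-mouse differences did not overlap between genotypes, as was the case for 9.62% of all genes tested. The interaction of -0.80 (SE 0.64) did not pass (limma adjusted p = 0.9996), nor did any gene of the 14620 tested. That SE takes no account of the pairing by mouse. The Cd84 interaction passed under none of 15 alternatives, the mouse as a block among them (lowest limma adjusted p = 0.918). The mean of 7 neutrophil transcripts also varied widely between arrays. It was 6.61, 8.13 and 5.79 in HSC of KO mice 2, 11 and 70, and 8.26, 8.08 and 6.11 in HSC of WT mice 3, 12 and 64. In MPP it was 7.21, 6.92 and 5.96 in KO and 7.38, 7.11 and 4.78 in WT. Its order of mice was that of Cd84 in HSC KO only, and its part in the Cd84 values was not tested.

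The 3 members below the low-value limit were followed by their values and by a fit without the filter. Slamf6 (Ly108), a self-binding receptor of lymphocytes, read 3.93, 4.04 and 3.77 in HSC KO and 4.08, 3.64 and 4.32 in HSC WT. In MPP it read 3.76, 5.34 and 4.34 in KO and 4.50, 6.06 and 5.61 in WT. All 6 HSC arrays were under the limit, and 3 of the 6 MPP arrays were above it, 1 from KO and 2 from WT. HSC was lower in 5 of 6 mice, with a mean difference of -0.97 that did not pass (limma adjusted p = 0.126).

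Slamf7 (CRACC), a receptor of NK and plasma cells that signals through EAT-2, read 3.74, 3.66 and 3.92 in HSC KO and 3.24, 4.47 and 3.58 in HSC WT. In MPP it read 4.15, 5.28 and 4.26 in KO and 5.47, 4.71 and 4.57 in WT. HSC was lower than MPP in 6 of 6 mice, by 0.24 in WT mouse 12 and by up to 2.23 in WT mouse 3. Over both genotypes the mean difference was also -0.97 and did not pass (limma adjusted p = 0.0766). Only 2 MPP arrays, 1 of each genotype, were above the low-value limit.

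Slamf8 and Slamf9 encode receptors known from myeloid cells and lack the long tyrosine-bearing tail. Slamf8 lay under the limit on all 12 arrays, between 3.79 and 4.90, and HSC was higher in 3 mice and lower in 3. Slamf9 read 5.36, 5.17 and 5.80 in HSC KO and 4.96, 5.35 and 4.86 in HSC WT, and 5.25, 4.77 and 5.02 in MPP KO and 5.09, 4.72 and 4.74 in MPP WT. HSC was higher in 5 of 6 mice, but the groups overlapped and the difference of 0.32 over both genotypes did not pass (95% interval -0.02 to 0.65; limma adjusted p = 0.280). Sh2d1a, the adaptor that links SLAM receptors to the kinase FYN in lymphocytes, stayed between 4.50 and 5.60 on all arrays. Its mean was 5.23 ± 0.31 in HSC KO, 5.17 ± 0.05 in HSC WT, 5.04 ± 0.26 in MPP KO and 5.07 ± 0.56 in MPP WT (SD, n = 3 each).

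Along chromosome 1 of GRCm38.p6, 6 of the members lie in a run of 7 SLAM genes, in the order Cd244a, Ly9, Slamf7, Cd48, Slamf1, Cd84 and Slamf6. Between Cd48 and Slamf1 the annotation also has Tma7-ps, which was not analysed here. Cd244a encodes the receptor of CD48 and is not among the 9 members. The first 4 of the run (Cd244a, Ly9, Slamf7 and Cd48) were lower in HSC than in MPP in 6 of 6 mice. The next SLAM gene, Slamf1, was higher in HSC in 6 of 6 mice. The directions of Cd48 and Slamf1 were set by the sort. Over both genotypes Cd244a and Ly9 passed, and Slamf7, below the low-value limit, did not. The share of all genes with the same direction in 6 of 6 mice was not counted. Cd84 was higher in HSC in 4 mice and Slamf6 lower in 5. Outside the run none of the measured flanking genes passed between HSC and MPP: F11r differed by 1.21, Alyref2 by -0.22 and Itln1 by -0.07 on the Cd244a side, and Vangl2 by 0.01, Nhlh1 by 0.12, Ncstn by -0.42 and Copa by -0.83 on the Slamf6 side. Copa was lower in HSC in 6 of 6 mice as well (limma adjusted p = 0.117), and F11r was higher in HSC in 5 of 6. Slamf9 and Slamf8 lie farther along chromosome 1 and Sh2d1a lies on the X.

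**Figure D3:**
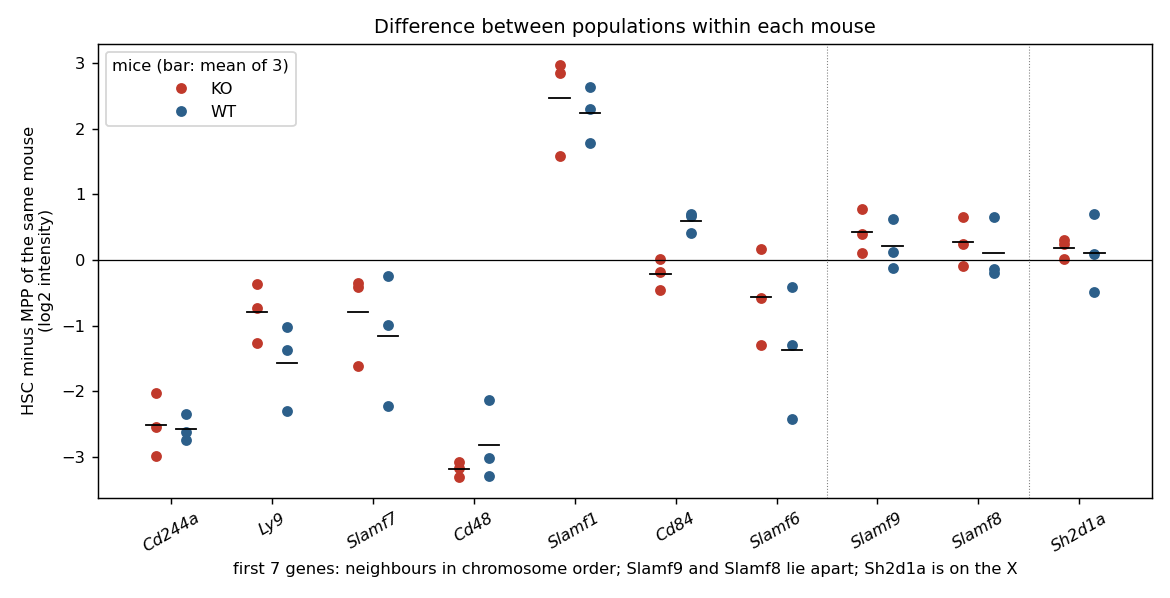
Difference between the populations within each mouse. Points give HSC minus MPP in log2 intensity for the 3 KO and 3 WT mice, bars the mean of 3, and genes follow their order on chromosome 1 up to Slamf8, with Sh2d1a on the X; Cd244a, Ly9, Slamf7 and Cd48 lie below 0 in all 6 mice and Slamf1 lies above 0 in all 6.

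None of the members passed between KO and WT in HSC, in MPP or in the mean of both populations. By limma 0 of 6 tested members passed in HSC and 0 of 6 in MPP, where 0% of the 14620 genes passed in each. The 6 include Slamf1 and Cd48, on whose products the cells of both genotypes were gated. At an unadjusted p under 0.05 there were 919 genes in HSC and 466 in MPP. No tested member had KO and WT groups without overlap, against 8.87% of genes in HSC and 9.49% in MPP. The median difference of the 6 tested members was 0.02 in HSC and 0.06 in MPP, beside 0.02 and 0.00 over all genes tested. Averaged over both populations of a mouse, the differences of the 6 ran between -0.26 for Cd84 and 0.27 for Slamf9.

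The intervals show what 3 mice against 3 could resolve. In HSC, Slamf1 differed by -0.02 (95% interval -0.78 to 0.74) and Cd48 by -0.22 (-0.84 to 0.40), so neither sort gene was shown to differ and neither was shown to be equal. Cells of both genotypes were gated on CD150 and CD48, which limits the genotype difference that these genes could show. With each mouse left out in turn the Slamf1 difference ran between -0.37 without KO mouse 11 and 0.42 without KO mouse 70, and it was also above 0 without WT mouse 3. In MPP the differences were -0.26 for Slamf1 (-1.01 to 0.50) and 0.14 for Cd48 (-0.48 to 0.76). Cd84 had the widest interval among the tested members, with -0.66 in HSC (-1.65 to 0.33) and 0.14 in MPP (-0.85 to 1.14). Leaving out a mouse in turn also turned the sign in MPP for Cd48 (-0.14 to 0.38) and Cd84 (-0.17 to 0.41). For Sh2d1a it turned the sign in MPP (-0.32 to 0.24) and in HSC (-0.12 to 0.18). Without KO mouse 11 the HSC difference of Cd84 was -1.09, and without KO mouse 70 it was -0.26.

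Ly9 was the member with the lowest p for genotype in HSC. It was 0.52 higher in KO (SE 0.23, 95% interval 0.01 to 1.03), with KO at 5.72 to 6.26 and WT at 5.17 to 5.76. The unadjusted limma p was 0.0446 and the adjusted p 0.790, so it did not pass. In MPP the difference was -0.25 (95% interval -0.76 to 0.25). Of the MPP list, 0 of 8 transcripts passed between KO and WT in HSC and 7 of 8 had the higher mean in KO, against 53.4% of all genes. The list mean was 6.01 to 6.37 on HSC KO arrays, against 5.76 to 5.91 on HSC WT arrays. In MPP the same list went the other way: 0 of 8 passed and 7 of 8 had the lower mean in KO. Of all genes tested, 50.5% were higher in KO there. The list mean was 8.88 to 8.97 on MPP KO arrays, against 8.92 to 9.16 on MPP WT arrays. Flt3, a cytokine receptor of progenitors, read 5.94, 5.09 and 6.88 in HSC of KO mice 2, 11 and 70, against 5.03, 5.39 and 4.95 in HSC of WT mice 3, 12 and 64. Dntt, the lymphoid DNA polymerase, stayed between 3.60 and 4.36 in HSC KO and between 3.58 and 3.69 in HSC WT, against 11.16 to 11.57 in MPP. KO mouse 70 had the highest Ly9 and Flt3, the highest MPP list mean and the lowest Slamf1 of the HSC arrays. On that array Cd48 read 5.75, below WT mice 3 and 64 at 5.86 and 6.02. The mean over the HSC markers was 7.90 there, within the 7.60 to 8.20 of HSC WT. Without that array the Ly9 difference was 0.40 (limma adjusted p = 0.813), and the part of the MPP transcripts in it was not tested. In cells taken in bulk, a few cells with much of a transcript and many cells with little of it cannot be told apart.

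Slamf6 showed the largest genotype difference in MPP among the 9 members, -0.91 (95% interval -1.86 to 0.04), in the fit without the low-value filter. Its unadjusted limma p was 0.0582 and its adjusted p 0.99998. Only KO mouse 11, at 5.34, lay among the WT values of 4.50 to 6.06, while KO mice 2 and 70 read 3.76 and 4.34. Slamf7 differed by -0.35 in MPP and 0.01 in HSC, and Slamf8 by 0.16 in MPP and 0.32 in HSC. Slamf9 differed by 0.38 in HSC (95% interval -0.09 to 0.86) and 0.17 in MPP, and did not pass (limma adjusted p = 0.867 in HSC).

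**Figure D4:**
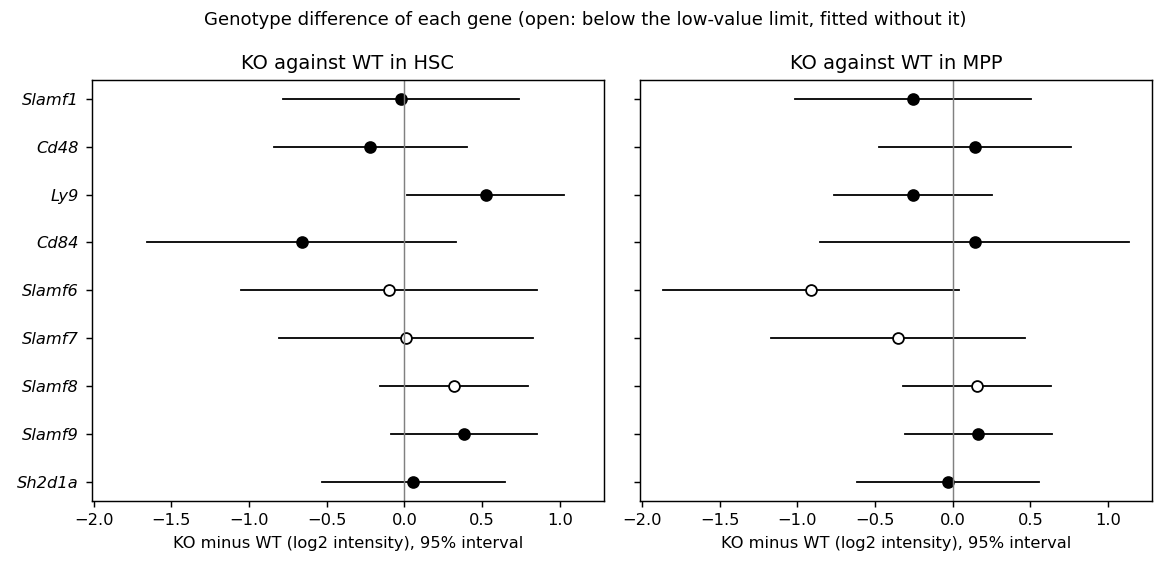
Genotype difference of each member. The left panel gives KO minus WT in HSC and the right panel in MPP, in log2 intensity with 95% intervals from the limma fit, open circles marking the 3 members below the low-value limit; the Ly9 interval in HSC, 0.01 to 1.03, is the only one that does not include 0, and no member passed after adjustment.

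The related receptors and adaptors included Cd244a, which behaved as a progenitor transcript. It read 5.16, 5.41 and 6.24 in HSC of KO mice 2, 11 and 70, and 5.39, 5.53 and 5.35 in HSC of WT mice 3, 12 and 64. The MPP values were 8.15, 7.95 and 8.26 in KO and 7.74, 8.27 and 7.97 in WT. The gap between populations exceeded the spread within each, and KO mouse 70 was again the highest HSC array. Cd244a fell in HSC relative to MPP in both genotypes by limma, by 2.52 in KO (adjusted p = 0.0009) and by 2.57 in WT (adjusted p = 0.0007). The 2 differences were nearly equal, with an interaction of 0.05 (95% interval -0.74 to 0.84). Among genes tested, 0.739% passed as lower in HSC in KO and 1.32% in WT.

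Cd2, another receptor that binds CD48, did not pass between HSC and MPP (-0.03) and stayed between 4.91 and 5.62 on all arrays. Of the EAT-2 type adaptors, Sh2d1b2 lay between 4.73 and 5.61 on all arrays. Sh2d1b1, below the low-value limit in the mean, read 6.61 in MPP of KO mouse 70 and at most 4.75 on the other 11 arrays.

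Of 24 listed signalling partners of the SLAM receptors, 21 were measured and 20 tested. Between HSC and MPP over both genotypes, 4 were higher and 16 lower in HSC, with a median difference of -0.12 beside 0.05 over all genes, of which 57.2% were higher in HSC. Among the 20, 1 passed, a share close to the 4.85% of all genes that passed. That gene was Inpp5d (SHIP-1), an inositol phosphatase that SLAM tails can recruit. It read 9.82, 8.90 and 8.53 in HSC of KO mice 2, 11 and 70, and 9.05, 9.13 and 8.74 in HSC of WT mice 3, 12 and 64. The MPP values were 10.16, 10.03 and 10.74 in KO and 10.54, 9.60 and 10.31 in WT. Inpp5d fell in HSC relative to MPP (difference -1.20, SE 0.24; limma adjusted p = 0.0173), and it was lower in HSC in 6 of 6 mice, though HSC of KO mouse 2 lay above MPP of WT mouse 12.

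Uvrag, Prkcq and Rasa1 differed in the same direction in every mouse without passing. The share of all genes with 1 direction in every mouse was not counted. Uvrag, a subunit of the Vps34 lipid kinase complex to which CD150 is known to bind in macrophages, was lower in HSC in 6 of 6 mice, by 0.60 (limma adjusted p = 0.0533). Prkcq, a kinase downstream of SAP in T cells, was higher in HSC in 6 of 6 mice, by 1.0 (limma adjusted p = 0.130). Rasa1 was higher in HSC in 6 of 6 mice by 0.26. Fyn, the kinase that SAP recruits, did not pass (limma difference -0.01), and neither did the phosphatases Ptpn6 (SHP-1) and Ptpn11 (SHP-2), at -0.43 and -0.07.

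**Figure D5:**
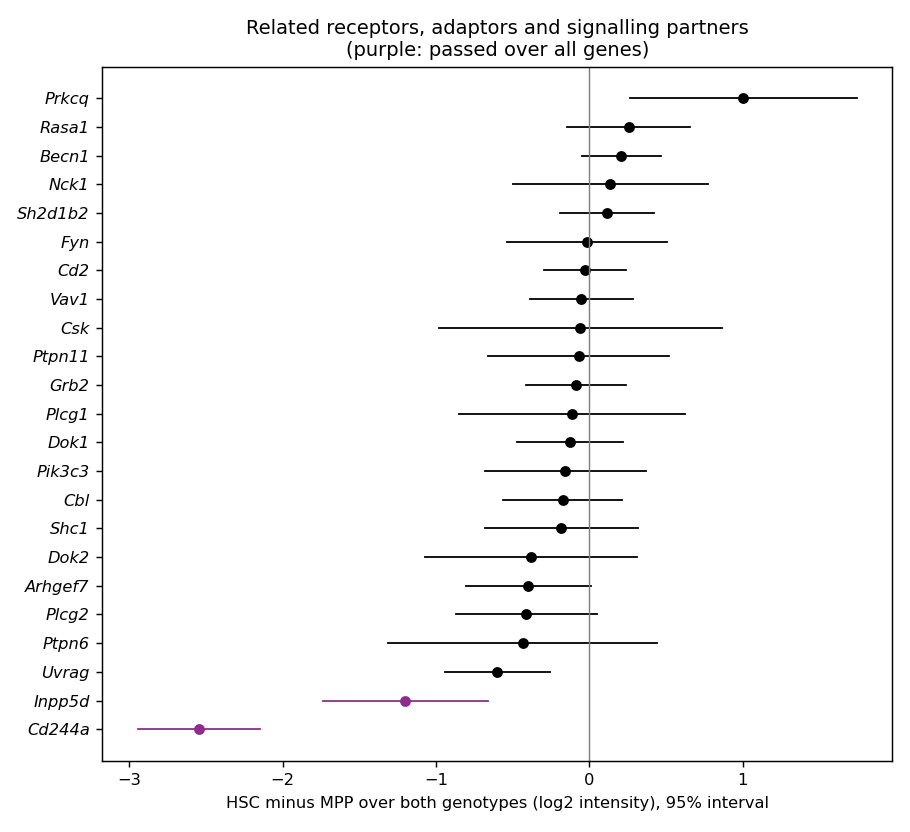
Related receptors, adaptors and signalling partners between HSC and MPP. Points give HSC minus MPP over both genotypes in log2 intensity with 95% intervals from limma; Cd244a at -2.55 and Inpp5d at -1.20, in purple, passed over all genes.

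For genotype, 0 of 20 partners passed in HSC and 0 of 20 in MPP. The lowest p in HSC belonged to Csk, the kinase that restrains FYN and its relatives. Csk read 9.85, 8.38 and 10.22 in HSC of KO mice 2, 11 and 70, against 6.73, 8.50 and 6.48 in HSC of WT mice 3, 12 and 64. KO mouse 11 and WT mouse 12 had nearly the same value, and the other 4 mice were far apart by genotype. The difference of 2.25 (SE 0.59) did not pass (limma adjusted p = 0.570). In MPP the same gene differed by -0.28. Plcg1, a phospholipase of the same pathway, differed by -1.11 in HSC (limma adjusted p = 0.790), with HSC of KO mouse 2 lowest at 6.69.

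Genes whose values ran most like a member's over the 12 arrays are given as a description, since the arrays share mice and fall into 2 populations. For Ly9 the highest Pearson correlations were with Nkg7 (r = 0.95 over 12 arrays, 0.84 over 6 HSC arrays and 0.66 over 6 MPP arrays), Ipo5 (0.93, 0.91 and 0.84) and Irf2bp2 (0.93, 0.82 and 0.13). The lowest was with Amigo2 (-0.96, -0.83 and -0.82). Nkg7, a granule protein gene of cytotoxic cells, differed by -2.18 between HSC and MPP (limma adjusted p = 1.59e-05). For the sort genes the values over 12 arrays and within a population differed: Cd48 ran with Il7r (0.97 over 12 arrays, -0.01 in HSC and 0.92 in MPP), Dntt (0.97, -0.28 and -0.20) and Clec2i (0.97, 0.06 and 0.32), and lowest with Clca3a1 at -0.98. Slamf1 ran with Clca3a1 (0.96), Car2 (0.95) and Gbp4 (0.95), of which Car2 kept 0.78 within HSC and 0.72 within MPP, and lowest with Adgrg3 (-0.97).

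For Cd84, Slamf9 and Sh2d1a the genes most alike over 12 arrays were also correlated within each population. Cd84 ran with Xpnpep3 (r = 0.85 over 12 arrays, 0.91 in HSC and 0.80 in MPP), Fam220a (0.84, 0.94 and 0.84) and Cfap20 (0.84, 0.97 and 0.56), and against E030030I06Rik (-0.84, -0.86 and -0.86). Slamf9 ran with 1700001O22Rik (0.89, 0.91 and 0.73), Ddx47 (0.88, 0.90 and 0.85) and Batf (0.87, 0.86 and 0.78), and against Rfx7 (-0.88, -0.90 and -0.77). Sh2d1a ran with Coch (0.95, 0.79 and 0.98), Agtr1b (0.91, 0.87 and 0.94) and Btbd2 (0.87, 0.82 and 0.88), and against Ptbp2 (-0.85, -0.90 and -0.94). These are the extremes of 14620 genes searched for each member, and no test was made.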

How the data were processed

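Total RNA of the sorted cells was extracted with a Qiagen method, and 300 pg of it per sample went through NuGEN amplification and biotin labelling, per the labels' protocols. The authors deposited RMA-normalized log2 intensities, 1 value per probe set and array. RMA and limma are named in the submitters' processing notes without versions. RMA gives the probe values of every array the same distribution before it summarizes them, so a change of the whole transcriptome cannot be seen. The summarized medians can still differ slightly, and small inputs make weak signals noisier. Detection calls were not used here, and the number of arrays limits precision.

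The table has 22142 probe sets, of which 19527 carry 1 gene symbol, 0 several and 2615 none (unnamed here). A gene with more than 1 probe set (33 genes) was represented by the brightest on average, giving 19494 genes. Genes in the lowest 25% of mean value (under 4.96) were dropped before testing, so 14620 remained. limma 3.58.1 in R 4.3.3 fitted group means to all 12 arrays. Its moderated tests were two-sided, p-values were adjusted by Benjamini-Hochberg over all genes of a comparison, and 0.05 was the threshold for passing. The mean of both populations was taken per mouse. The script was tested on simulated data. HSC and MPP are paired by mouse in the labels, and deviations of paired arrays correlated at r = 0.03 to 0.09. Alternatives changed the filter, the probe sets, the normalization, the variance moderation, the array weights, the arrays in the fit, the mouse block and the mice kept. The 2 that leave out a single HSC array were chosen after seeing the data.

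Members and lists were chosen with earlier results of these data known. Named are all members, Nfat5, listed genes that passed or had the lowest p, and the 3 most and 1 least correlated genes per member above the filter. The flanking genes and, beside a result, Fyn, Ptpn6, Ptpn11, Rasa1, Flt3 and Dntt were added after their values were seen.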

Additional observations from a re-analysis of the deposited data

How the results depend on the processing

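No result that passed changed direction under 14 planned and 2 added settings. Of 88 results for single genes, 19 that had not passed, none over 0.26 in size, turned sign under at least 1 setting. Of 909 values of single genes, 904 kept their side of the threshold or, where no call was made, moved by less than 1 SD. The exceptions were Ly9 between HSC and MPP in WT, given with the results, and Slamf1 between HSC and MPP in KO, which was 2.91 without the HSC array of KO mouse 70. With the mouse as a replicate block, 180 genes passed for HSC against MPP in WT (154 of them shared with the 302 without it) and 113 for HSC against MPP in KO (92 shared with the 184). Apart from Ly9 in WT, the pairing changed the call of no member outside the sort genes. For the sort genes, whose difference the sort set, no call between the populations was made. Using only the arrays compared gave 79 genes in KO. Leaving out each mouse in turn, 70 to 297 genes passed in WT, 57 to 168 in KO and 379 to 524 for HSC against MPP over both genotypes (709 with all mice), and 0 to 1 for KO against WT in HSC. Without the HSC array of KO mouse 2, which had the widest deviations, 106 genes passed in KO and 626 over both genotypes. Without that of KO mouse 70, 1 gene passed for KO against WT in HSC, and 699 passed over both genotypes. Ly9 over both genotypes ran between -1.31 and -0.99 and passed under all 15 alternatives run for it (highest limma adjusted p = 0.030). For Slamf6, Slamf7 and Slamf8 only the fit without the filter gave limma values. Their mean HSC minus MPP differences within mice kept their sign under all 8 settings run. Blocks could not be fitted for the mean of both populations, nor a fit of only the arrays compared for that mean, both genotypes together or the interaction.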
